A study of Mus musculus with 2 samples.

Results

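10 genes of Notch signalling, a pathway through which neighbouring cells instruct each other, were examined in a highly metastatic mouse osteosarcoma line, LM8, and in Dunn, the non-metastatic parental line of which LM8 is a subline. The genes were the receptors Notch1, Notch2 and Notch3, the ligands Jag1 and Dll1, the sugar transferase Lfng, the coactivator Maml1 and the target genes Hes1, Hey1 and Heyl. They were represented by the probe sets whose only annotated gene symbol was 1 of these names, which gave 20 of 45101 probe sets and 10 of 18193 genes. LM8 and Dunn cells shared 1 culture medium (10% heat-treated serum, 1% non-essential amino acids), received no treatment, and were each hybridised as biotin-labelled RNA (10 µg) to 1 Affymetrix mouse genome array. With 1 array a line there is no replicate check on any difference, so no p-value is given, folds hold for these 2 arrays, and line, culture and array cannot be told apart. Both lines are tumour cell populations kept in culture, and each is a single line.

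Notch receptors are membrane proteins that are cut after they bind a ligand of the Jagged or Delta-like families on an adjacent cell. ADAM proteases make the outer cut and the gamma-secretase complex makes the inner one. The released intracellular domain enters the nucleus, joins the DNA-binding protein RBPJ and a Mastermind-like coactivator, and switches on genes such as those of the Hes and Hey families of transcriptional repressors. Fringe enzymes lengthen the sugars on the receptors and thereby shift their response between ligand families. In bone, Notch signalling is known to restrain the maturation of osteoblast precursors.

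On the brightest measured probe set of each gene, Lfng, Hey1 and Jag1 were at least 2-fold higher in LM8, Hes1, Notch3 and Maml1 were at least 2-fold lower, and Notch1, Notch2 and Dll1 lay between. Heyl was not measured. A probe set was counted as measured if it exceeded the floor, the median signal of its array, in at least 1 line, and the floors were 18.96 for LM8 and 21.06 for Dunn. This held for 13 of the 20 probe sets and 9 of the 10 genes. Here 3 of 9 genes went in each direction by 2-fold or more, against a background of 6.51% (higher) and 8.84% (lower) over the 11830 measured genes of the arrays. Of the 13 probe sets, 3 were 2-fold higher, 3 were 2-fold lower and 7 lay between, against 5.91% higher and 7.79% lower over all 25144 measured probe sets. The 10 genes were chosen with earlier results of these arrays known, so nothing is read from the excess over the background. Their median log2 difference, LM8 minus Dunn, was -0.20, and that of all measured genes was -0.08.

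**Figure D1:**
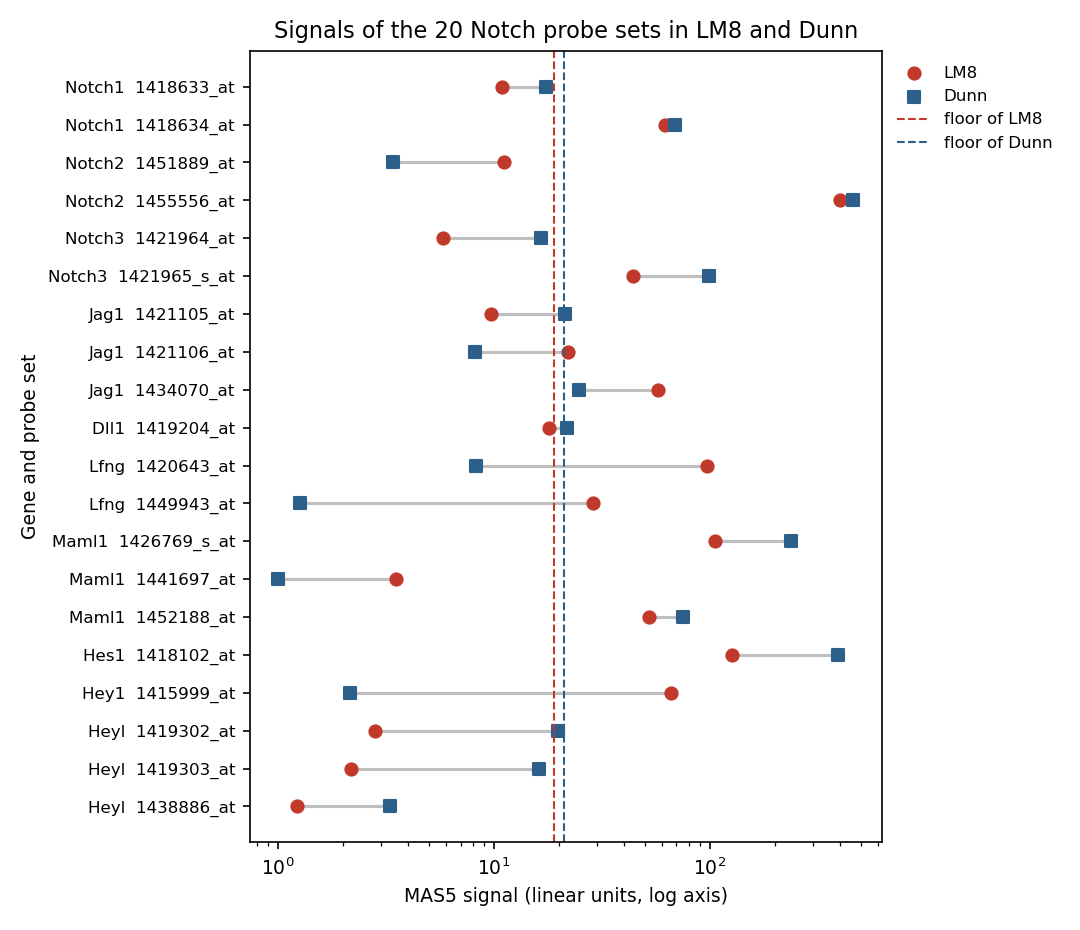
MAS5 signals of the 20 probe sets of the 10 genes in LM8 (red circles) and Dunn (blue squares) on a log axis, 1 row per probe set, with a grey line joining the lines' values and dashed lines at the floors of 18.96 (LM8) and 21.06 (Dunn). LM8 lies right of Dunn, with its own signal above the floor, for Lfng, Hey1 and 2 probe sets of Jag1, and left of Dunn, with both above the floors, for Hes1, 2 probe sets of Maml1, the brighter probe set of Notch3 and, by less, those of Notch1 and Notch2.

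Stretches directly before the transcription start are shown for the 4 genes that were 2-fold apart and had an entry in the promoter table, so that the higher pair (Lfng and Jag1) can be set beside the lower pair (Notch3 and Maml1). Of the 10 genes, 7 matched that table by symbol, and Hes1, Hey1 and Heyl did not. The sequences come from RefSeq, build GRCm38.p6, run 5′ to 3′ on the strand of the gene and end at the base before the annotated start. The windows are chr5:140607091-140607340 (plus strand) for Lfng, chr2:137116521-137116770 (minus strand) for Jag1, chr17:32166891-32167140 (minus strand) for Notch3 and chr11:50292337-50292586 (minus strand) for Maml1. Capitals mark matches on either strand to the RBPJ core TGGGAA, and to the N-box CACNAG, the letters bound by Hes repressors.
Lfng: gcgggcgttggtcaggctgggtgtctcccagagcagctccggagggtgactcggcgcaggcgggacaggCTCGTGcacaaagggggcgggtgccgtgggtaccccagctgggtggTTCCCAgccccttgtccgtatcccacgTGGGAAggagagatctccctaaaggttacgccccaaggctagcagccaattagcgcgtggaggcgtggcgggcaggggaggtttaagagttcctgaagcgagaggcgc
Jag1: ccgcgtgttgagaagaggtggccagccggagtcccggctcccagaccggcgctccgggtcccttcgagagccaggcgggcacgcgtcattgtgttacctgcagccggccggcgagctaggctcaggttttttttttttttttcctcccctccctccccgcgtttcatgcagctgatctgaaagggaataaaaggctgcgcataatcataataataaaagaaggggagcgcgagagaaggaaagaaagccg
Notch3: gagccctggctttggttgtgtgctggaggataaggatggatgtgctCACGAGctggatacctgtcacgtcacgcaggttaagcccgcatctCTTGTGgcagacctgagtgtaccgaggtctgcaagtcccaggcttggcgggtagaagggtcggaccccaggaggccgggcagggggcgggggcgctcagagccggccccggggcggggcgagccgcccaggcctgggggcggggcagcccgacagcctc
Maml1: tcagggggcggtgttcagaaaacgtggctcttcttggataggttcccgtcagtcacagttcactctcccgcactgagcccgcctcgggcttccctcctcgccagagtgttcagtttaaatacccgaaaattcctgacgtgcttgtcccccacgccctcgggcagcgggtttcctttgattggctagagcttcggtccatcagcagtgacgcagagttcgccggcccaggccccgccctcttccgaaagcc
The Lfng window held 2 matches to the RBPJ core, 1 on each strand, whose first bases lay 135 and 108 bases before the start. The nearer one belongs to the longer form GTGGGAA and overlaps an E-box, CACGTG, that begins 112 bases before the start. A core match occurs in 21.6% of the 32851 windows of 250 bases in the table, and 2 or more in 2.77%. GTGGGAA occurs in 5.42% and CACGTG in 6.02% of them. The windows of Jag1, Notch3 and Maml1 held no RBPJ core. Notch3 held 2 N-box matches, 204 and 159 bases before the start, as 8.18% of windows do, and Lfng held 1, as at least 1 occurs in 36.7%. The letters are a description of these windows, and no binding was measured.

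Of the ligands, Jag1 was higher in LM8 and Dll1 hardly rose above the floor. Jag1, a Jagged ligand, had a signal of 57.7 in LM8 and 24.9 in Dunn on probe set 1434070_at, a 2.32-fold difference. Only this probe set of the gene lay above the floor in both lines, and its Dunn signal was close to the floor. On 1421106_at the signals were 21.9 in LM8 and 8.18 in Dunn, and on 1421105_at they were 9.66 in LM8 and 21.4 in Dunn. Each of these dimmer probe sets had an array under its floor and the other close to it, so neither gives a measured difference. The higher signal of Jag1 thus rests on 1 of its 3 probe sets. Its log2 difference was 0.37 as the mean over all 3 and 0.74 with a pseudocount in place of the floor. The dimmer probe sets share a source sequence, as do both of Lfng and the measured ones of Maml1. Dll1, a Delta-like ligand, had 18.1 in LM8 and 21.9 in Dunn on its 1 probe set, which in LM8 was under the floor. A gap that small next to the floor is no measured difference.

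Lfng was higher in LM8 on both of its probe sets. It encodes lunatic Fringe, which adds N-acetylglucosamine to fucose on the receptors and in mouse embryos is itself switched on by Notch in the segmentation clock. On probe set 1420643_at the signal was 96.9 in LM8 and 8.25 in Dunn, and on 1449943_at it was 28.8 in LM8 and 1.26 in Dunn. Both probe sets were above the floor in LM8 and under it in Dunn, so the folds are lower bounds, of at least 4.60-fold and at least 1.37-fold, with a mean log2 difference of 1.33. With the floor raised to the 75th percentile of each array, Lfng in LM8 barely exceeded it and the log2 difference was 0.02.

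Among the receptors, Notch3 was lower in LM8 and Notch1 and Notch2 were close to Dunn. Notch3, known for its role in the muscle cells and pericytes of small vessels, had 43.9 in LM8 and 99.2 in Dunn on 1421965_s_at, a log2 difference of -1.18. Its second probe set, 1421964_at, was under the floor in both lines, at 5.82 in LM8 and 16.5 in Dunn. Notch2 had 402 in LM8 and 462 in Dunn on 1455556_at, and Notch1 had 62.2 in LM8 and 69.1 in Dunn on 1418634_at. The log2 differences of -0.20 for Notch2 and -0.15 for Notch1 lay inside the spread between probe sets of a gene, whose SD had a median of 0.30 over 5521 genes, and turned to 0.04 and 0.09 when scaled on the hybridisation controls. That spread is technical or due to isoforms and is not replicate error. The second probe sets of Notch1 and Notch2 were under both floors. The ending _s_at of the Notch3 probe set means that its probes also match other transcripts, of the same or of another gene. Notch3 came to -0.93 when scaled on the hybridisation controls, to -0.94 with a pseudocount and to -0.11 with the floor at the 75th percentile. The LM8 signal lay under that floor and was raised to it, so -0.11 is set by the floor and is no smaller measured gap.

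Of 6 listed markers of pericytes and smooth muscle, 3 were measured, of which 1 (Pdgfrb) was 2-fold lower in LM8 and 2 lay between. Over all genes 8.84% were 2-fold lower, and nothing is read from this count. Pdgfrb had 212 in LM8 and 471 in Dunn, Cspg4 had 80.6 in LM8 and 139 in Dunn, and Des had 34.8 in LM8 and 59.1 in Dunn. Their signals summed to 327 in LM8 and 669 in Dunn, most of it from Pdgfrb. The smooth muscle myosin gene Myh11, Rgs5 and Cnn1 were under the floor in both lines. The part of these markers in the Notch3 difference was not tested, and in bulk RNA fewer cells of a type cannot be told from less RNA per cell.

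Maml1, which bridges the Notch and RBPJ complex to histone acetyltransferases, was lower in LM8 on both measured probe sets. The signals were 105 in LM8 and 238 in Dunn on 1426769_s_at, and 52.5 in LM8 and 75.1 in Dunn on 1452188_at. The log2 differences were -1.17 and -0.52, so the 2-fold gap rests on the brighter one, whose probes also match other transcripts. The third probe set, 1441697_at, was under the floor in both lines. Scaled on the hybridisation controls the brighter value was -0.93, and the mean of both was -0.85.

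The target genes went opposite ways. Hes1, a repressor of differentiation genes and a widely used readout of the pathway, had 127 in LM8 and 393 in Dunn on 1418102_at, a 3.10-fold lower signal in LM8 with both lines well above their floors. A difference as far down was reached by at least 300 of 11830 genes, or 2.54%. Hey1, a repressor of the same wider family, had 66.3 in LM8 and 2.15 in Dunn on 1415999_at. Dunn was under its floor, which makes Hey1 at least 3.15-fold higher in LM8. Its log2 difference of 1.65 is set by the floor, and with the floor at the 75th percentile it was not measured. Each of these genes has 1 probe set, so no second probe set checks either value. Heyl, the third target, stayed under the floor in both lines, at 2.80, 2.18 and 1.23 in LM8 and at 19.8, 16.2 and 3.30 in Dunn on its 3 probe sets, and has no fold. So of the 3 listed targets 1 was higher, 1 was lower and 1 was not measured.

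**Figure D2:**
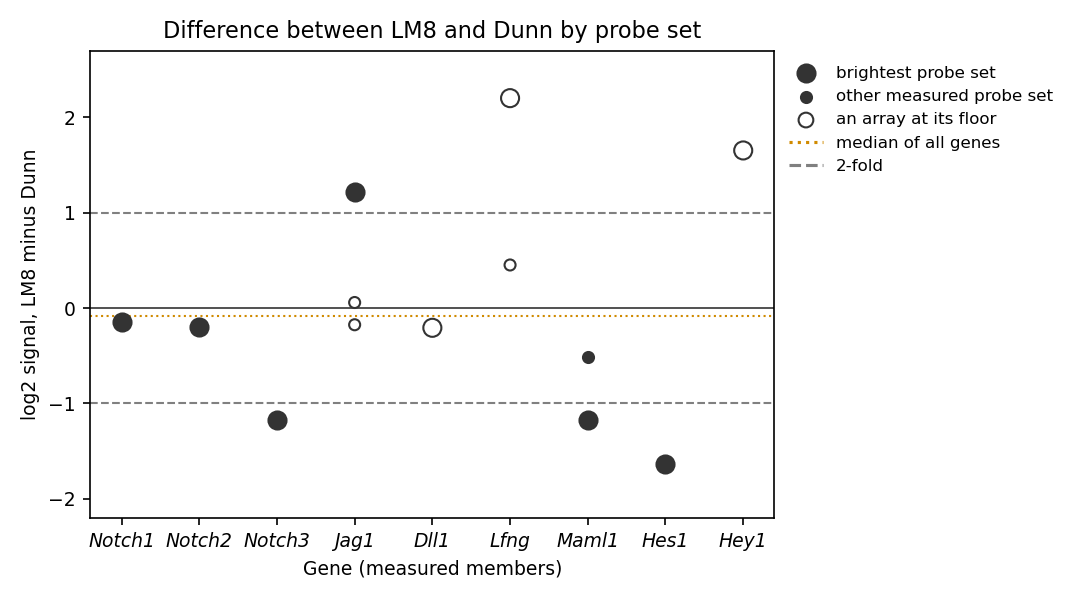
Log2 signal difference, LM8 minus Dunn, for each measured probe set of the 9 measured genes, with large symbols for the brightest probe set, open symbols where an array was at its floor (a lower bound), dashed lines at 2-fold and a dotted line at the median of all genes (-0.08). Lfng (2.20), Hey1 (1.65) and Jag1 (1.21) lie above the upper line and Hes1 (-1.63), Notch3 (-1.18) and Maml1 (-1.17) below the lower one, while the other probe sets of Lfng, Jag1 and Maml1 lie between.

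None of the 3 genes that were 2-fold apart and had several measured probe sets (Jag1, Lfng and Maml1) was called 2-fold apart on all of them. The second probe set of Lfng gave only a lower bound of 1.37-fold, so whether it was 2-fold apart is not known. Over all 11830 measured genes, 516 were 2-fold higher and 765 lower on all measured probe sets, which includes genes with a single probe set. The direction was shared by all measured probe sets of Lfng and Maml1, while the dimmer ones of Jag1, next to the floor, gave no measured direction. The signals of Lfng, Hey1, Jag1 and Notch3 stayed below 100 in both lines. Of the 4691 measured genes in that range, 5.16% were 2-fold higher and 9.21% 2-fold lower in LM8.

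A list of 67 further pathway genes, drawn up by role, had 52 measured genes, of which 2 were at least 2-fold higher in LM8, 3 were lower and 47 lay between. These shares, 3.85% and 5.77%, are near the 6.51% and 8.84% over all genes, and nothing is read from them. The median log2 difference was -0.26, against -0.08 over all genes. This gap depended on the processing. The 2 medians were -0.13 and -0.09 with probe sets averaged and -0.14 and -0.13 with a pseudocount. They were -0.27 and -0.03 with quantile normalization, so nothing is read from the gap. Of the 67 genes, 5 were not analysed here. The other 10 genes were under both floors, among them the receptor gene Notch4, Mfng and the targets Hey2, Hes2, Hes3, Hes7 and Nrarp, chosen after their values were seen.

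Dlk2, a Delta-like protein without the Delta-type receptor-binding region of the classical ligands, was 2-fold higher in LM8 on both of its probe sets. It had 172 in LM8 and 43.9 in Dunn on 1420807_a_at, and 136 in LM8 and 30.4 in Dunn on 1450005_x_at. Both were above the floors, with log2 differences of 1.97 and 2.16. The ending _x_at of the second means that its probes may also match other transcripts, so it is a weaker check. Of the other ligand genes, named after their values were seen, Dll3 had 22.8 in LM8 and 23.9 in Dunn. Dll4 lay between the 2 floors in LM8 and under the floor in Dunn, so its difference was not measured. Jag2 had 21.3 in LM8, just above both floors, and 15.5 in Dunn, under the floor, a lower bound of 1.01-fold. Dlk1 was under both floors. None of the 4 genes of ligand uptake was called 2-fold apart, against 6.51% higher and 8.84% lower over all genes. For 2 of them an array was under its floor, so their folds are lower bounds. Mib1, the ubiquitin ligase that drives ligand endocytosis, had 244 in LM8 and 193 in Dunn.

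Of 8 measured genes of receptor cleavage, 1 was at least 2-fold higher, 1 was lower and 6 lay between, against 6.51% higher and 8.84% lower over all genes. Adam17, an ADAM protease able to make the outer cut, had 275, 216 and 136 in LM8 and 132, 107 and 76.2 in Dunn on its 3 probe sets. All were higher in LM8, by 2.09-fold, 2.03-fold and 1.78-fold. Adam10, the protease that makes this cut after ligand binding, had 506 in LM8 and 606 in Dunn on its brightest probe set. Psen2, a catalytic subunit of gamma-secretase, had 29.5 in LM8 and 90.8 in Dunn, a 3.08-fold lower signal in LM8, and its other probe set was under both floors. Psenen, another subunit of gamma-secretase, had 845 in LM8 and 869 in Dunn. Furin, the protease that processes the receptors on their way to the surface, had 55.4 in LM8 and 109 in Dunn, just inside 2-fold, and was named after its value was seen.

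Among regulators of receptor turnover, 1 of 12 was 2-fold lower (8.33%, against 8.84% of all genes) and none higher. Lnx1, a ubiquitin ligase that acts on the Notch inhibitor Numb, had 59.2 in LM8 and 139 in Dunn on its brightest probe set. That probe set ends in _s_at, so its probes also match other transcripts. On the other, Lnx1 was at least 3.69-fold lower in LM8. Nedd4, also a ubiquitin ligase, had 1760 in LM8 and 2971 in Dunn, with log2 differences from -1.14 to -0.76 over 3 probe sets. The 7 measured genes of the nuclear complex all lay between, 1 of them with an array under its floor. Rbpj, the DNA-binding partner of every Notch receptor, had 478 in LM8 and 555 in Dunn on its brightest probe set, and its 3 probe sets ran from -0.89 to -0.22. Of 12 measured corepressor genes, 1 was 2-fold lower (8.33%, against 8.84% of all genes) and none higher. This was Tle6, a Groucho family member, 2.41-fold lower with 102 in LM8 and 246 in Dunn. Ctbp1 had 1089 in LM8 and 894 in Dunn. The Fringe gene Rfng had 158 in LM8 and 199 in Dunn on its brightest probe set and was the other way round on the second, with 164 in LM8 and 105 in Dunn. Poglut1, which glucosylates the receptors, had 169 in LM8 and 213 in Dunn. Of the other target genes, Hes6, which can oppose Hes1, had 74.9 in LM8 and 114 in Dunn, and Hes5 was near the floor.

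**Figure D3:**
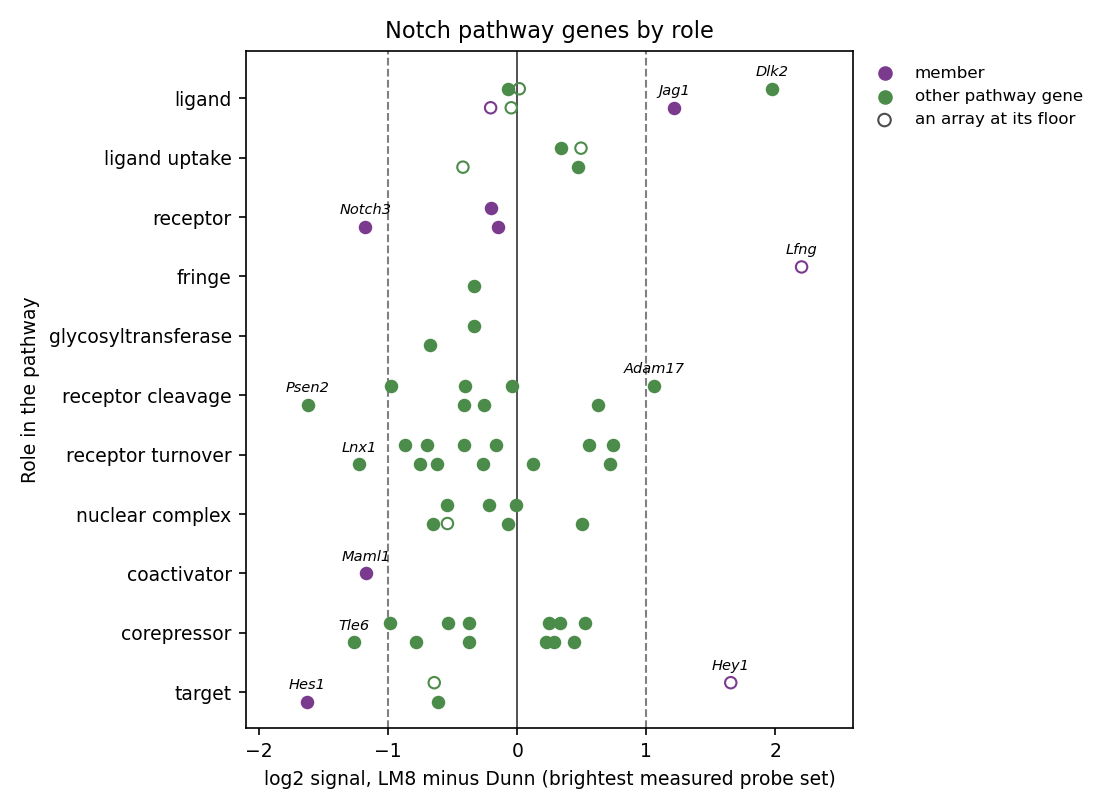
Log2 signal difference, LM8 minus Dunn, of the 61 measured pathway genes by role, on the brightest measured probe set, with purple for the 9 measured members, green for the 52 other genes, open symbols where an array was at its floor and dashed lines at 2-fold. The named genes are those at least 2-fold apart, 5 to the right and 6 to the left, and no role has all of its genes on one outer side except the single coactivator, Maml1.

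The labelled origin of the cells was checked with 12 markers of the osteoblast lineage. Col1a1 had 3537 in LM8 and 2399 in Dunn, Alpl 1739 in LM8 and 1266 in Dunn, and Sp7, the osteoblast transcription factor osterix, 743 in LM8 and 687 in Dunn, while the late markers Dmp1 and Phex were under both floors. In all, 8 were measured and 2 were not analysed here. Of the 8, Omd was 2-fold higher in LM8, Ibsp and Pth1r were lower and 5 lay between. Over all genes, 6.51% were higher and 8.84% lower. Of 7 endothelial markers Pecam1, Cdh5, Tek, Emcn and Erg were under both floors, and Kdr and Vwf were measured, Vwf at 67.3 in LM8 and 152 in Dunn. Of 7 macrophage and osteoclast markers, 4 were measured, with signals that summed to 62.0 in LM8 and 169 in Dunn. Of these 4, Lyz2, Cd68 and Adgre1 were under the floor in LM8, and Lyz2 was at least 2.36-fold lower there. Csf1r was 2.80-fold lower in LM8 on its brightest probe set, with 26.8 in LM8 and 75.1 in Dunn. Of its other probe sets, 1419872_at was higher in LM8 and 1419873_s_at lower, each with an array under its floor. Ptprc, Acp5 and Aif1 were under both floors. Of 6 epithelial markers, 3 were measured, with sums of 65.4 in LM8 and 93.8 in Dunn, and Cdh1, Krt18 and Krt14 were under both floors. Of the measured ones, Krt8 and Krt5 were under the floor in LM8, and the other probe set of Epcam was under both floors. Nothing is read from these sums. The part of such markers in the values of the Notch genes was not tested.

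**Figure D4:**
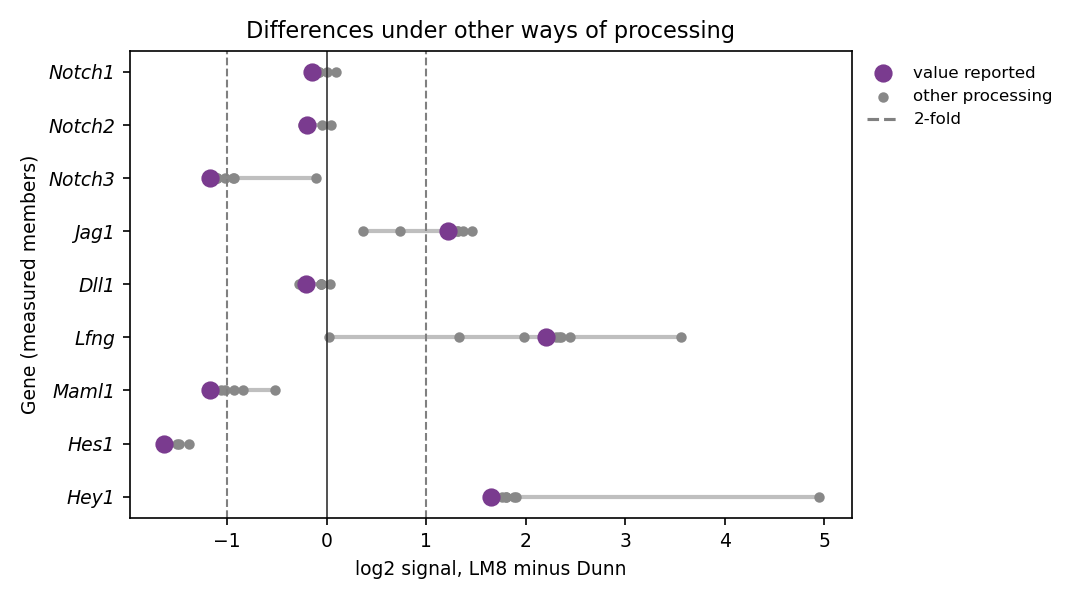
Log2 signal difference, LM8 minus Dunn, of the 9 measured genes as reported (purple) and under other ways of scaling, setting floors and summarising probe sets (grey), with dashed lines at 2-fold. Hes1 stays below -1 and Hey1 above 1 wherever they were measured, though some alternatives could not move these genes with 1 probe set each. The ranges of Jag1, Lfng, Notch3 and Maml1 reach inside the 2-fold lines and those of Notch1, Notch2 and Dll1 cross 0.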

How the data were processed

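RNA of 2 mouse osteosarcoma lines was compared. The deposited values are linear signal intensities from MAS5, according to the submitters' processing notes. No source used here gives its version or settings. In the deposited intensities the 2% trimmed mean was 100 on both arrays. Detection calls were not used here.

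The 64 control probe sets were left out and the other 45037 set to a common 2% trimmed mean (factor 1.00). Signals below an array's median were raised to it, so a fold with an array at this floor is a lower bound if the other array exceeds both floors. With LM8 between the 2 floors and Dunn under its own, the direction is not measured and the gene counts as not 2-fold apart. A gene was represented by its brightest measured probe set (mean log2 signal). Names came from the platform annotation (34958 probe sets with 1 symbol, 932 with several, 9160 unnamed), updated through gene identifiers (99.4% matched) to GRCm38.p6. Genes were called at 2-fold. The steps were run on simulated arrays with differences planted in brighter genes only. That run does not cover genes near the floor, such as Lfng, Hey1 and Jag1.

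The members, the lists and the fold rule were chosen with earlier results of these data known. Named pathway genes were those 2-fold apart and, per role, the one with the highest mean signal. The alternatives were 4 scalings, 3 treatments of the floor, 2 gene summaries, a 3-fold rule, and 2 chosen after seeing the data: leaving out _s_at and _x_at probe sets, and requiring both lines above the floor. The tools were pandas 2.3.3 and numpy 2.4.6 in Python 3.11.15, with statsmodels 0.14.6 for lowess, scipy 1.17.1 for trimmed means and matplotlib 3.10.9 for plots.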

Additional observations from a re-analysis of the deposited data

How the results depend on the processing

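Hes1 was 2-fold lower in all 10 alternatives that gave it a value (-1.65 to -1.39) and Hey1 2-fold higher in all 8 (1.65 to 4.94). With 1 probe set each, averaging probe sets or leaving out _s_at and _x_at ones could not move either gene. Hes1 also stayed at -1.63 with no floor, with the 75th percentile floor and with both lines above the floor. Its signals lay above the floors used, so these settings did not test it. Jag1 stayed 2-fold higher in 7 of 9 (0.37 to 1.46) and Lfng in 8 of 9 (0.02 to 3.55). Maml1 stayed 2-fold lower in 7 of 10 and Notch3 in 6 of 9, and none of these genes changed sign. Notch1, Notch2 and Dll1 ran from -0.28 to 0.09 and changed sign with scaling. Equal medians moved the median of all genes to 0.07 and the hybridisation controls to 0.16. The controls left 1 member 2-fold lower and 1237 genes higher and 639 lower, so that 65.9% of called genes were higher, against 42.4% as reported and 56.9% with equal medians. The floor at the 75th percentile left 0 members higher, 1 pathway gene each way, and 377 genes higher and 397 lower; dropping both the floor and the filter on dim probe sets, which counts 62 pathway genes and 18193 genes in all, gave 4 and 6 pathway genes and 2553 and 3351 of all genes. The 3-fold rule left 1 member lower, 1 pathway gene each way, and 294 and 336 genes. The pathway count of higher genes was 1 with a pseudocount, with probe sets averaged and with all probe sets required to be 2-fold apart, which also left 1 member higher. Without _s_at and _x_at probe sets 1 member was lower. With both lines above the floor, 1 was higher and the members' median was -0.69. That setting leaves out Lfng and Hey1 for their low Dunn signals and Dll1 for its low LM8 signal. Beyond the change in genes measured under other floors, filters or rules, the cause was not tested. No paired analysis was possible because each line has 1 array, and no array could be left out. Signals near the floor limit Jag1, Dll1, Lfng and Hey1.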
